A study of Rattus norvegicus with 18 samples.

Results

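This account covers 8 genes known from the intercalated cells of the kidney collecting duct: Slc26a4, Foxi1, Atp6v1b1, Atp6v1c2, Rhcg, Atp6v0d2, Atp6v1g3 and Slc4a1. They were chosen by name, with earlier results of these data known. All 8 were found, each as 1 feature with a single symbol in the platform's probe gene table, out of 28328 features in all. RNA came from rat cells of the inner medullary collecting duct (IMCD), the last stretch of the tubule system, kept in primary culture, and was read on 18 whole-transcript arrays in 6 groups of 3. Unchallenged cells were grown at 300 mosmol/kg (the 300 culture) or at 600 mosmol/kg (the 600 culture). Cells of the 300 culture were stepped up to 600 mosmol/kg for 24 h, alone (the 600 challenge) or with 5 µM cyclosporin A, which blocks calcineurin, a phosphatase. Cells of the 600 culture were stepped up to 900 mosmol/kg for 24 h, alone (the 900 challenge) or with the same dose of the drug. The labels give no genotype, strain, age or number of animals and no time spent at the starting osmolality. No group was moved for 24 h without a change in osmolality, so the step and the 24 h cannot be told apart. Whether arrays of one group stem from different animals or culture dishes is not labelled, so p-values cover only how far these arrays differ from each other, possibly for technical reasons, and the number of arrays limits the precision.

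Intercalated cells are the acid and base secreting cells of the collecting duct and lie scattered among the principal cells, which take up water and sodium. Type A cells secrete protons through a vacuolar H+-ATPase (V-ATPase) on the luminal side and pass bicarbonate to the blood through the anion exchanger Slc4a1. Type B cells secrete bicarbonate into the lumen through the exchanger pendrin, the product of Slc26a4. The forkhead factor Foxi1 is needed for both fates and drives transcription of pendrin, of Slc4a1 and of V-ATPase subunits. These cells grow fewer along the inner medulla and are rare toward its tip.

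The deposited values are logarithms of unstated base, so all levels and differences are given in log units. A difference of 1 unit stands for 2-fold if the base is 2 and for 2.72-fold if it is e. The lower quartile of the features on an array lay between 2.48 and 2.70, and a level under it is not shown to stand above background. Against that line, 5 of the 8 genes (Foxi1, Rhcg, Atp6v0d2, Atp6v1g3 and Slc4a1) lay under it on all 18 arrays. Atp6v1b1 lay under it on 17 of 18 arrays. Slc26a4 and Atp6v1c2 lay above it on all 18. Most of these genes thus lay near or under the lower quartile in every group, while the pendrin gene did not.

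**Figure D1:**
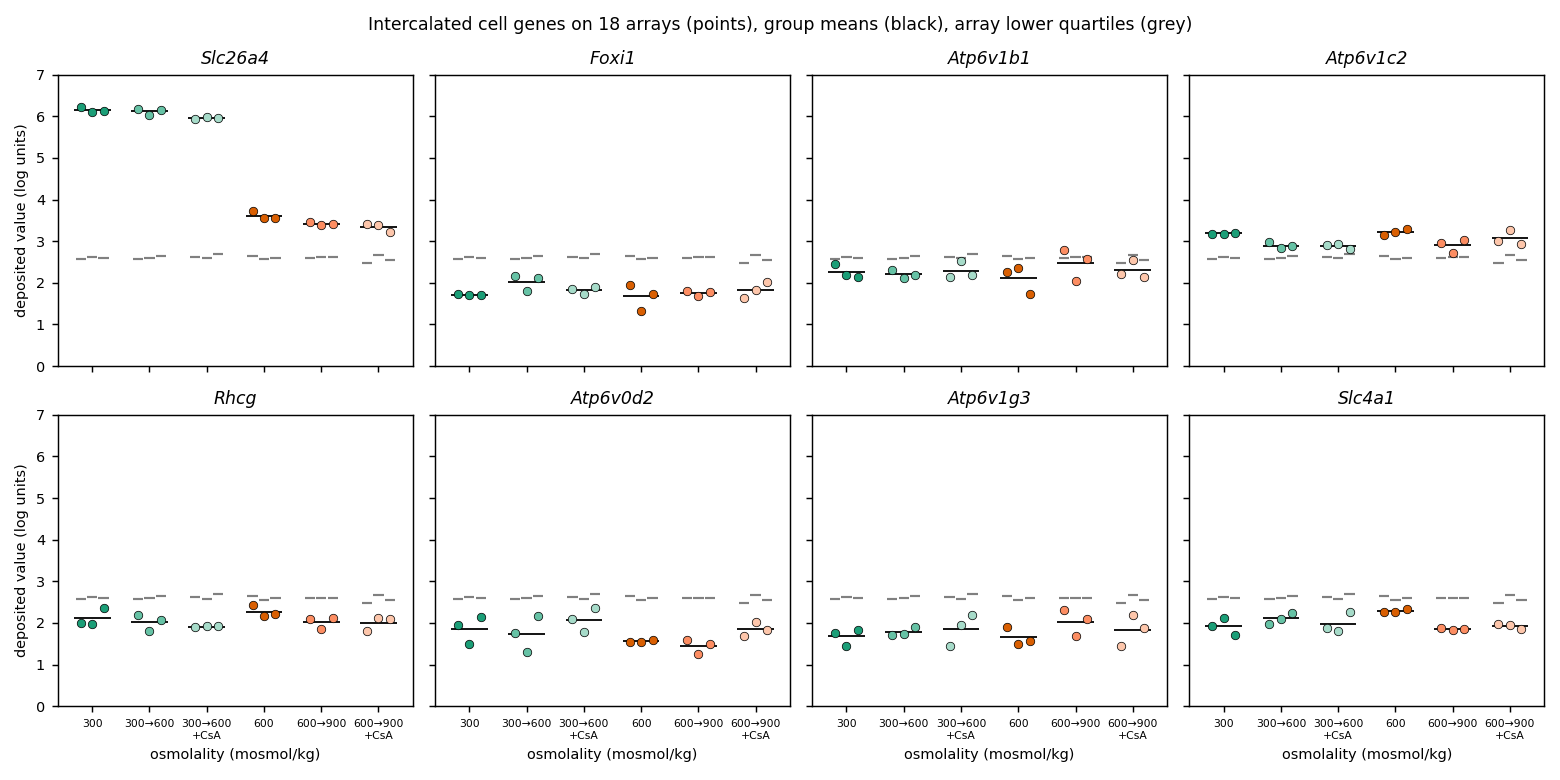
Deposited value (log units, vertical axis) of each of the 8 genes on the 18 arrays (points), by group (horizontal axis, starting and final osmolality in mosmol/kg, with or without cyclosporin A, CsA); black bars are means of 3 arrays and short grey bars the lower quartile of each array. Slc26a4 lies between 5.93 and 6.22 in the groups started at 300 mosmol/kg and between 3.22 and 3.73 in those started at 600 mosmol/kg, and most other genes lie under the grey bars.

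Slc26a4, the bicarbonate-secreting exchanger pendrin, is the gene whose level differed most. In the 300 culture its values were 6.22, 6.11 and 6.12. After the 600 challenge they were 6.18, 6.03 and 6.14, and with cyclosporin A they were 5.93, 5.98 and 5.95. These 9 arrays share the start at 300 mosmol/kg, and all of them lay at or above 5.93, higher than 87.4% to 90.8% of the features of their array. In the 600 culture the values were 3.73, 3.56 and 3.54. After the 900 challenge they were 3.46, 3.39 and 3.41, and with cyclosporin A they were 3.41, 3.38 and 3.22. The 9 arrays that started at 600 mosmol/kg thus reached at most 3.73, near the middle of their arrays, at 41.7% to 51.9% of features. No array of one starting osmolality overlapped with an array of the other.

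Compared directly, Slc26a4 fell from 6.15 ± 0.06 in the 300 culture to 3.61 ± 0.10 in the 600 culture (SD, n = 3), a difference of -2.54 ± 0.07 (SE; limma, Benjamini-Hochberg adjusted p = 1.54e-12). That is 5.82-fold lower with base 2 and 12.7-fold lower with base e. Among 14499 genes with a symbol, 17 had a larger fall in this comparison. At the same final osmolality of 600 mosmol/kg, the level was 2.51 ± 0.07 log units higher in cells stepped there for 24 h than in cells grown there (limma, adjusted p = 2.73e-12), and 9 genes had a larger rise.

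The 24 h steps themselves went with small differences in Slc26a4. The 600 challenge differed from the 300 culture by -0.03 ± 0.07 (limma, adjusted p = 0.814), with a 95% interval from -0.17 to 0.11. With cyclosporin A the difference from the 300 culture was -0.20 ± 0.07 and did not pass (limma, adjusted p = 0.0557), but passed without features under the lower quartile (0.0392) and with an intensity trend in the variance (0.0434). The 900 challenge differed from the 600 culture by -0.19 ± 0.07, which did not pass either (limma, adjusted p = 0.0617) but passed without features under the lower quartile (0.0436). With cyclosporin A at 900 mosmol/kg Slc26a4 fell by 0.27 (limma, adjusted p = 0.0081), a call that was lost when only these groups were fitted (adjusted p = 0.107). The group means run from 6.15 (300 culture) through 6.12 (600 challenge), 5.95 (with cyclosporin A), 3.61 (600 culture) and 3.42 (900 challenge) to 3.34 (with cyclosporin A). Between neighbours in this order the first and the last pair overlapped. The 600 challenge with and without the drug did not overlap, nor did the 600 culture and the 900 challenge, but neither difference passed. The wide gap, between 5.93 and 3.73, lies between the groups of different starting osmolality.

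No group was stepped back from 600 to 300 mosmol/kg. Growth at 600 mosmol/kg therefore cannot be told apart from anything else that differed between those cultures. In such bulk RNA, fewer cells of a type and less RNA per cell cannot be told apart either.

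Markers of other cells were read beside this result, and their part in it was not tested. Over all features 17.2% were called between the cultures (8.33% higher, 8.84% lower) and 14.4% after the 600 challenge (6.36% higher, 8.07% lower). Leukocyte and macrophage genes fell in 13 of 15 cases and rose in 1 between the 300 and the 600 culture (median -1.06), in the direction of Slc26a4, with array means of the list of 5.96 to 6.03 and 4.83 to 4.93. After the 600 challenge 12 of 15 fell as well (median -1.20, array means 4.70 to 4.86), and there Slc26a4 differed by -0.03. Of the fibroblast genes 7 of 12 fell from the 300 to the 600 culture (array means 6.24 to 6.30 and 5.93 to 5.96) and 9 of 12 fell after the 600 challenge (5.55 to 5.60). Endothelial genes rose in 5 and fell in 3 of 11 cases between the cultures (5.27 to 5.31 and 5.45 to 5.58), and 7 fell and 1 rose after the 600 challenge (4.87 to 4.95). Proximal tubule genes rose in 1 of 10 cases between the cultures, and 5 of the 10, among them Slc34a1 and Slc5a2, lay under the lower quartile on all arrays.

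Genes of the principal cell and IMCD list ran the other way, with 12 of 17 higher and 2 lower in the 600 culture than in the 300 culture (median 1.27, array means 3.69 to 3.77 and 5.28 to 5.50). Loop of Henle genes were higher in 6 of 9 cases and lower in 0 of 9 (median 0.68). Of all features 8.33% were called higher and 8.84% lower in this comparison. The water channel gene Aqp2, a defining marker of principal cells, went from 1.61 ± 0.12 to 6.50 ± 0.30 (SD, n = 3), and the urea transporter gene Slc14a2, a marker of the terminal IMCD, from 1.98 ± 0.06 to 5.77 ± 0.23. Both thus lay under the lower quartile in the 300 culture, where Slc26a4 was high. Of the 17 genes of that list 8 lay above the lower quartile on all arrays, 1 (Scnn1b) under it on all, and 8 on either side. Unlike Slc26a4, Slc14a2 also rose with each 24 h step without the drug, by 1.18 and by 1.25.

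**Figure D2:**
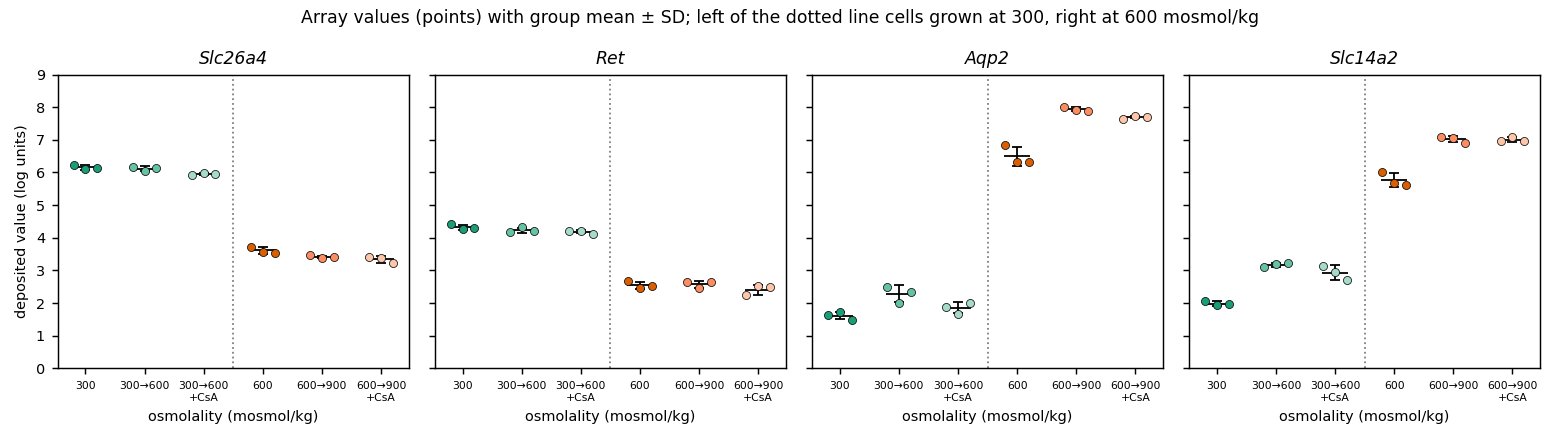
Deposited values (log units, vertical axis) on each array (points) with the mean ± SD of 3 arrays for Slc26a4, for Ret, whose pattern is among the most like it, and for the collecting duct markers Aqp2 and Slc14a2, by group (horizontal axis, osmolality in mosmol/kg). Slc26a4 and Ret are high left of the dotted line (6.15 and 4.32 in the 300 culture) and low right of it (3.61 and 2.55 in the 600 culture). Right of the line Ret lies near or under the lower quartile of the arrays. Aqp2 and Slc14a2 run the other way. Levels of different genes are not to be compared.

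The 3 named features with the values most like those of Slc26a4 over the 18 arrays were Or2a25, annotated as an olfactory receptor gene (Pearson r = 0.997), Ret, the receptor tyrosine kinase of the ureteric bud (r = 0.993), and Dennd2b (r = 0.992). These are descriptions over the same arrays and groups, with no test. Ret stood at 4.32 ± 0.08 in the 300 culture, 4.22 ± 0.08 after the 600 challenge and 2.55 ± 0.11 in the 600 culture (SD, n = 3). Or2a25 had means of 5.93, 6.08 and 2.90 in those groups. Unlike Slc26a4, Ret lay under the lower quartile on 2 of 3 arrays of the 600 culture. It did so on 1 of 3 arrays after the 900 challenge and on 3 of 3 with cyclosporin A. The size of the fall of Ret is thus uncertain.

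Foxi1, the factor needed for intercalated cell identity, lay under the lower quartile on every array, from 1.32 to 2.17. Its values were 1.73, 1.70 and 1.71 in the 300 culture and 1.95, 1.32 and 1.74 in the 600 culture, where Slc26a4 was 2.54 log units lower. The groups overlapped, and the difference of -0.04 (95% interval -0.34 to 0.26) did not pass (limma, adjusted p = 0.906). After the 600 challenge Foxi1 read 2.17, 1.79 and 2.11, all above the 300 culture, a difference of 0.31 ± 0.14 that did not pass (limma, adjusted p = 0.173). Against the 600 culture the 600 challenge differed by 0.35 ± 0.14, which did not pass (limma, adjusted p = 0.111) but passed without replicate 1 of the 600 culture (0.0276) or replicate 2 of the 600 challenge (0.0489). At this level the arrays do not show whether Foxi1 RNA was present.

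Promoter sequences were available from RefSeq (build GRCr8) for 6 of the 8 genes, as windows of 250 bases before and 50 bases after a transcript start. They were searched on both strands for the forkhead core letters TGTTTAC and TATTTAC, since Foxi1 is a forkhead factor, and for TGGAAA, the core of the tonicity element bound by Nfat5. The window of Slc26a4, shown because it is the 1 gene here with a large difference, holds none of the 3. Its 250 upstream bases, chr6:53873217-53873466 on the minus strand, read 5′ to 3′ as follows, and the gene record extends 502 bases further upstream, so longer transcript models start outside it.
Slc26a4 upstream: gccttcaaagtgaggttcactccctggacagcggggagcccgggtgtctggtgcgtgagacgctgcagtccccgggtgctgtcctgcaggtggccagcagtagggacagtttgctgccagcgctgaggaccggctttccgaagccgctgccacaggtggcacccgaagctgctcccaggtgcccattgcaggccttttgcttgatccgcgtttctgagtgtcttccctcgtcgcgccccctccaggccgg
Of the 6 windows only that of Atp6v1b1 holds a forkhead core, 93 bases before the start at chr4:117781340-117781368 on the plus strand, with the core in capitals.
Atp6v1b1 match: gccagcttcccTGTTTACagtcaacctgg
TGTTTAC or TATTTAC occurs in 7.1% of all 33469 promoter windows of the table and TGGAAA in 22.7%, and TGGAAA too is held by 1 of the 6 windows, that of Atp6v1b1. A match is a description of letters and not a site, and a window without one says nothing on the factor.

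The V-ATPase is built from subunits that several tissues share and from isoforms found mainly in intercalated cells and a few other acid-secreting cells. The listed isoform genes are Atp6v1b1 and Atp6v1c2 (isoforms of the B and C subunits of the ATP-splitting part), Atp6v1g3 (G subunit) and Atp6v0d2 (d subunit of the membrane part). Atp6v1b1 ran from 1.73 to 2.79 over the 18 arrays, and the array at 2.79, from the 900 challenge, was the only one above its lower quartile. Atp6v1g3 ran from 1.45 to 2.32 and Atp6v0d2 from 1.27 to 2.35, both under the quartile throughout. In none of these 3 genes did any of the 8 comparisons between groups pass, and their group means spanned 0.35, 0.37 and 0.63 log units, beside residual SDs between arrays of 0.25, 0.28 and 0.27. Atp6v0d2, which is also known from macrophages and osteoclasts, read 1.96, 1.50 and 2.14 in the 300 culture and 1.76, 1.29 and 2.17 after the 600 challenge, where 12 of 15 leukocyte genes fell. These values overlapped, and its difference of -0.12 did not pass (limma, adjusted p = 0.787). Between the 300 and the 600 culture, where 13 of 15 leukocyte genes fell, it differed by -0.30. That did not pass either (limma, adjusted p = 0.409), and a link of Atp6v0d2 with those genes was not tested.

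Atp6v1c2 was the 1 V-ATPase isoform of the list above the lower quartile on all arrays, from 2.73 to 3.29. It read 3.17, 3.18 and 3.21 in the 300 culture and 3.14, 3.21 and 3.29 in the 600 culture, which overlap. After the 600 challenge it read 2.98, 2.83 and 2.88, and with cyclosporin A 2.90, 2.93 and 2.81, so every one of these arrays lay under every array of the 300 culture. The differences from the 300 culture were -0.29 ± 0.09 (limma, adjusted p = 0.041) and -0.30 ± 0.09 with the drug (adjusted p = 0.0342). The 900 challenge read 2.96, 2.73 and 3.02, all under the 600 culture, a difference of -0.31 ± 0.09 (limma, adjusted p = 0.0238). With cyclosporin A at 900 mosmol/kg the values of 3.01, 3.27 and 2.93 overlapped with the 600 culture and the difference of -0.15 did not pass (adjusted p = 0.333). The direct comparison of these challenges gave 0.17 ± 0.09 and did not pass (adjusted p = 0.54), so a drug effect was not shown. The first call was lost without any 1 array of the 300 culture or without replicate 2 or 3 of the 600 challenge (adjusted p up to 0.137). The second was lost without any 1 array of either group (up to 0.116), and the third without replicate 2 or 3 of the 600 culture or replicate 2 of the 900 challenge (up to 0.115). With an intensity trend these 3 calls were all lost (0.0967, 0.0831 and 0.0637), and the third also with only the groups compared (0.103). Against the 600 culture the 600 challenge differed by -0.32 ± 0.09 (limma, adjusted p = 0.0223). That call was kept in 7 of 12 alternatives and lost in 5, the trend among them (adjusted p up to 0.0892). Its 3 most similar named features over the 18 arrays were Top2a (Pearson r = 0.860), H1f1 (0.860) and Rrm1 (0.858), the first a DNA topoisomerase gene, the second a linker histone gene and the third a subunit gene of ribonucleotide reductase.

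Other V-ATPase subunit genes, not only shared ones, were read from a further list, and all 18 measured genes of it lay above the lower quartile on all arrays. Of these 18, 2 rose and 2 fell after the 600 challenge, where 14.4% of all features were called. After the 900 challenge 4 rose and 2 fell, against 17.4%, and between the 300 and the 600 culture 1 rose and 5 fell, against 17.2%. The median of the list was 0.05 after the 900 challenge and 0.00 between the cultures. The B subunit gene Atp6v1b2, the widespread counterpart of Atp6v1b1, fell by 0.21 after the 900 challenge (limma, adjusted p = 0.00317). Atp6v0d1, the counterpart of Atp6v0d2, fell by 0.29 after the 600 challenge (limma, adjusted p = 0.000989). The regulatory subunit gene Atp6v1h rose by 0.25 and by 0.29 in the 2 challenges and was 0.35 higher in the 600 than in the 300 culture.

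**Figure D3:**
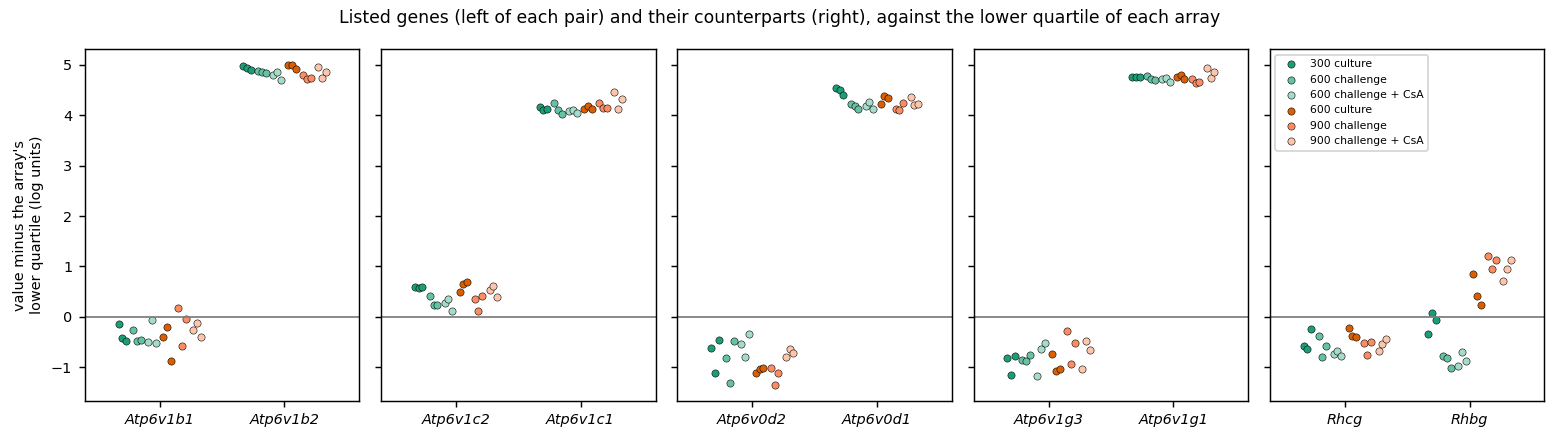
Value minus the lower quartile of the same array (log units, vertical axis) for 5 listed genes and a counterpart of each (horizontal axis), 1 point for each of 18 arrays, coloured by group; the grey line at 0 is the lower quartile. The counterparts Atp6v1b2, Atp6v1c1, Atp6v0d1 and Atp6v1g1 lie above the line on all 18 arrays and Rhbg on 10, while Atp6v0d2, Atp6v1g3 and Rhcg lie under it on all 18; only the side of the line is to be read, since levels of different features are not comparable.

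Rhcg encodes the ammonia channel of the collecting duct, which intercalated cells and some principal cells carry. It ran from 1.80 to 2.44, under the lower quartile throughout. Its values in the 300 culture were 1.99, 1.98 and 2.37 and in the 600 culture 2.44, 2.18 and 2.21, which overlap, and the difference of 0.16 ± 0.13 did not pass (limma, adjusted p = 0.495). None of its 8 comparisons passed. Rhbg, the basolateral ammonia channel gene of the same family, differed between groups, from 2.49 ± 0.23 in the 300 culture to 3.10 ± 0.35 in the 600 culture (SD, n = 3; adjusted p = 0.0204). In the 600 challenge it fell by 0.75 to 1.74 ± 0.09, under the lower quartile, and after the 900 challenge it rose by 0.60 to 3.71 ± 0.13 (limma, adjusted p = 0.00687 and 0.0226). The 300 culture values of Rhbg lay -0.338, 0.073 and -0.052 from the lower quartile of their arrays, so the size of the fall is uncertain.

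Slc4a1, the basolateral bicarbonate exchanger of type A cells and the main membrane protein of red cells, ran from 1.71 to 2.33 and was under the lower quartile on every array. Values in the 600 culture were 2.27, 2.25 and 2.33, all above those of the 300 culture (1.93, 2.11 and 1.71), a rise of 0.37 ± 0.11 (limma, adjusted p = 0.0372). After the 900 challenge they were 1.88, 1.83 and 1.87, all below the 600 culture, a fall of 0.43 (adjusted p = 0.0163). With cyclosporin A they were 1.98, 1.95 and 1.85, a fall of 0.36 (adjusted p = 0.0417). The 600 challenge, at 1.98, 2.10 and 2.25, overlapped with the 300 culture (difference 0.19, adjusted p = 0.317). All these levels lie where the arrays do not show signal above background, and each of the 3 calls was lost when some single arrays were left out. The rise was lost without replicate 1 or 3 of the 300 culture or any 1 array of the 600 culture (adjusted p up to 0.171). The first fall was lost without replicate 3 of the 600 culture or replicate 2 of the 900 challenge (up to 0.057), and the second without any 1 array of either group (up to 0.137). Of 11 alternatives, changes of the fit included, 3 kept the rise, 9 the first fall and 2 the second. The erythroid list had 10 measured genes, of which Epb42 and Gata1 lay under the lower quartile on all arrays, with Sptb higher (0.69) and Tfrc lower (-0.54) in the 600 than in the 300 culture. After the 900 challenge, where Slc4a1 fell, Sptb rose by 1.48 and Tfrc fell by 0.30. The other 8 of the 10 were not called in either comparison, where 17.2% and 17.4% of all features were called. A link of this list with Slc4a1 was not tested. The 3 named features most like Slc4a1 were Xpnpep2 (Pearson r = 0.750), Or2g7 (0.745) and Ptpro (0.744). Group means of Xpnpep2 ran from 1.72 to 2.02, under the lower quartile, and those of the other features from 2.37 to 2.95, near it.

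**Figure D4:**
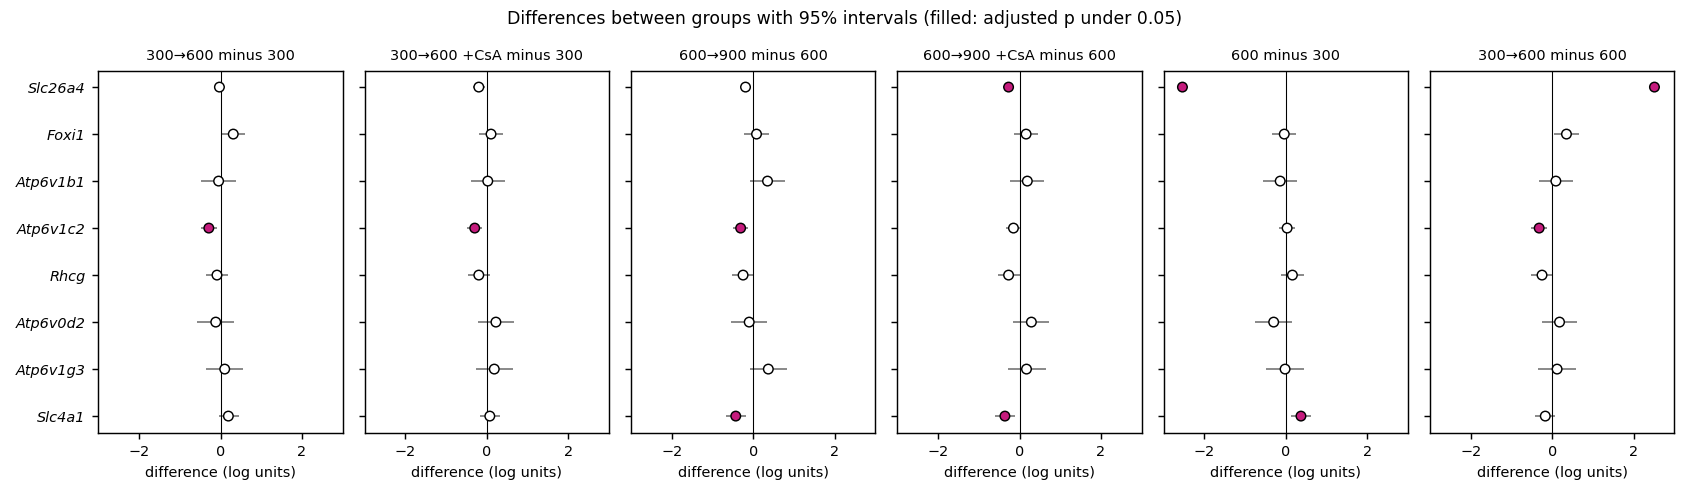
Differences between groups (log units, horizontal axis) for the 8 genes (vertical axis) in 6 comparisons, with 95% intervals from limma; filled points have an adjusted p under 0.05 and arrows in the panel titles join starting and final osmolality in mosmol/kg. Slc26a4 stands apart at -2.54 (600 against 300 culture) and 2.51 (600 challenge against 600 culture), and every other difference shown lies between -0.43 and 0.37.

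Counted at the adjusted threshold of 0.05, between 0 and 2 of the 8 listed genes were called in each comparison, near the share over all features. With the 600 challenge 1 of 8 fell and 0 rose, where 14.4% of all features were called (6.36% higher, 8.07% lower). With cyclosporin A added 1 of 8 fell and 0 rose, against 14.1% (6.21% higher, 7.85% lower). With the 900 challenge 2 of 8 fell and 0 rose, against 17.4% (6.43% higher, 11.0% lower), and with cyclosporin A 2 fell and 0 rose, against 17.8% (7.27% higher, 10.5% lower). From the 300 to the 600 culture 1 of 8 rose and 1 fell, against 17.2% (8.33% higher, 8.84% lower). The 600 challenge set against the 600 culture had 1 of 8 higher and 1 lower, against 16.4% (7.69% higher, 8.74% lower). Medians over the 8 genes lay between -0.15 and 0.10 in these 6 comparisons, beside medians over all features between -0.02 and 0.03. Cyclosporin A changed 0 of 8 at 600 mosmol/kg (limma; 1 at an unadjusted p under 0.05, Slc26a4 at -0.17 ± 0.07) and 0 of 8 at 900 mosmol/kg (0 at an unadjusted p under 0.05), where 0.409% (0.229% higher, 0.180% lower) and 0.505% (0.357% higher, 0.148% lower) of features were called. The effect of the step differed between starting osmolalities in 1 of 8, Slc4a1, which was lower, against 7.58% of features (3.52% higher, 4.06% lower), and the effect of the drug in 0 of 8 (0 at an unadjusted p under 0.05), against 0.0459% (0.0388% higher, 0.00706% lower).

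Other genes known from intercalated cells were read from a wider list, of which 21 of 25 were measured. Between the 300 and the 600 culture 7 of 21 rose and 0 fell (median 0.26, against 0.00 over all features, of which 17.2% were called), opposite in direction to Slc26a4. They were led by the membrane carbonic anhydrase gene Car12 (2.05 ± 0.09), the cytosolic carbonic anhydrase gene Car2 (1.59 ± 0.06), the sodium-driven bicarbonate exchanger gene Slc4a8 (1.49 ± 0.16) and the vasopressin receptor gene Avpr1a (1.27 ± 0.07). Against the 600 culture the 600 challenge had 8 of 21 lower and 0 higher, against 16.4% of features, including Rhbg (-1.37), Avpr1a (-1.36), Slc4a8 (-1.31) and the receptor kinase gene Kit (-1.09). Several of these genes are also known from other cells. The V-ATPase a4 subunit gene Atp6v0a4 had group means from 2.35 to 2.67 and passed in none of the 8 comparisons.

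In the wider list 2 of 21 rose after the 600 challenge, Car12 by 1.27 and Car2 by 0.52, and 3 fell, among them Rhbg (-0.75) and Kit (-0.44), where 14.4% of all features were called. After the 900 challenge 3 rose, Car12 (1.66), Slc26a7 (1.08) and Rhbg (0.60), and 2 fell, among them Kit (-0.72), against 17.4% of features. Slc26a7, an anion transporter gene of the same family as pendrin that is known from type A cells of the outer medulla, stood at 2.89 ± 0.16 in the 600 culture and 3.97 ± 0.30 after the 900 challenge (SD, n = 3; limma, adjusted p = 0.000103). With cyclosporin A against the same step without it, 0 of 21 were called at either osmolality (limma, 2 at an unadjusted p under 0.05 at each). Over all features only 0.409% were called for the drug at 600 mosmol/kg and 0.505% at 900 mosmol/kg.

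Notch signals between neighbouring cells are known to hold collecting duct cells in the principal fate. Of 14 measured Notch genes, 3 rose and 1 fell between the 300 and the 600 culture (median 0.05), where 17.2% of all features were called. The ligand gene Jag2 was 1.35 higher, the receptor gene Notch1 0.82 higher and the target gene Hes1 0.39 higher, and the ligand gene Dll4 was 0.72 lower. In the 600 challenge 1 rose and 5 fell (median -0.16), against 14.4% of features. Of those that fell, the target gene Heyl was at -1.30 and the receptor gene Notch3 at -1.14, while Slc26a4 and Foxi1 did not pass. In that comparison 9 of 12 fibroblast genes fell, and of 11 endothelial genes 7 fell and 1 rose. Bulk RNA does not show which cells the Notch differences came from, and this was not tested.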

How the data were processed

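Total RNA for 18 whole-transcript arrays was made into biotin-labelled cDNA, per the labels' protocols. The authors deposited 1 value per feature and array on a log scale; its base and the summarisation, normalization and build are not given in the sources used here. The values run from 0 to 9.504, with array medians of 3.56 to 3.65. Groups came from the labels, with replicate numbers from the sample titles. Features were named through the platform's probe gene table (15295 features with 1 symbol, 322 with several, 12711 with none).

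All 28328 features were fitted as 6 group means with limma 3.58.1 in R 4.3.3 (lmFit and eBayes, residual df 12), and p-values were adjusted by Benjamini-Hochberg over all features within each comparison, with a threshold of 0.05. A ± is an SD for group values and an SE for differences. The script was tested on simulated data. No 2 arrays were identical, and arrays of a group correlated at 0.983 to 0.987. The 8 genes and the gene lists were chosen with earlier results of these data known. All 8 are named, with fixed counterparts, up to 4 called genes per other list and comparison by size, and the 3 named features most correlated with each called gene. That ranking passed over features without a single symbol and symbols that start with LOC, RGD, Olr, Vom, Mir or Sno. Alternatives changed the scaling, the filter on low values, the arrays fitted, the variance model, the replicate block and each array in turn. Protein sequences were not used here.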

Additional observations from a re-analysis of the deposited data

Results flagged for a closer look

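The effect of the 24 h step was compared between starting osmolalities (step from 600 to 900 minus step from 300 to 600 mosmol/kg, limma, Benjamini-Hochberg adjusted) in 35 genes: the 8 genes, the 21 of the wider intercalated list, the V-ATPase counterparts Atp6v1b2, Atp6v1c1, Atp6v0d1 and Atp6v1g1, and Aqp2 and Slc14a2. Of these 7 passed, where 7.58% of all features did. Genes of the other lists are not given here. Slc4a1 differed by -0.62 ± 0.16 (SE; adjusted p = 0.0298), from steps of 0.19 and -0.43, with all its levels under the lower quartile. This call was kept in 7 of 17 alternatives and lost in 10. Rhbg differed by 1.36 ± 0.24 (adjusted p = 0.00283), with a fall of 0.75 in the lower step and a rise of 0.60 in the upper one. Its 600 challenge arrays lay under the lower quartile and its 300 culture arrays at -0.338, 0.073 and -0.052 from it. The size of that fall is thus uncertain. Car2 differed by -0.79 ± 0.09 (adjusted p = 5.52e-05), from steps of 0.52 and -0.28. Slc26a7 differed by 0.78 ± 0.21 (adjusted p = 0.0349), from steps of 0.30 and 1.08, the first not called and with 2 of 3 arrays of the 300 culture under the lower quartile. Kit fell in both steps, by 0.44 and by 0.72, a difference of -0.28 ± 0.07 (adjusted p = 0.0299). Adgrf5, a receptor gene of the wider list, differed by 0.31 ± 0.09 (adjusted p = 0.048), from steps of -0.39 and -0.08. Aqp2 differed by 0.77 ± 0.20 (adjusted p = 0.0317), from steps of 0.67 and 1.44. The lower step of Aqp2 runs between levels under the lower quartile on all 6 arrays, so its size is uncertain. Slc26a4 did not pass here, at -0.16 ± 0.09 (adjusted p = 0.382).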

How the results depend on the processing

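The differences of Slc26a4 between the 600 and 300 cultures (-2.60 to -2.51) and between the 600 challenge and the 600 culture (2.47 to 2.57) kept their calls in all 12 alternatives each. Over the 11 called differences of the 8 genes, 79 of 134 alternative values kept the call, 55 lost it and 0 turned direction. Counts of called genes moved as follows. An intensity trend gave 0 after the 600 challenge, 1 after the 900 challenge with and without cyclosporin A, 1 in each comparison with the 600 culture as a start or end, and 0 for the difference of steps. Leaving out features under the lower quartile, which kept 23191 features and 2 of the 8 genes, gave 2 after the 600 challenge with cyclosporin A, 1 after the 900 challenge with it, 1 between cultures and 0 for the difference of steps. Fitting only the groups compared gave 1 after the 900 challenge with and without the drug and 1 between cultures. Median centring gave 1 after the 900 challenge with the drug. Leaving out single arrays gave 0 to 1 after the 600 challenge, 0 to 0 with the drug, 0 to 2 after the 900 challenge, 1 to 1 with the drug, 1 to 2 between cultures, 1 to 3 between the 600 challenge and the 600 culture and 0 to 1 for the difference of steps. The cause of these moves was not tested.

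Same-numbered arrays did not deviate together (correlations -0.13 to 0.07), so the numbers were not taken as pairs. A replicate block gave 0 after the 600 challenge, 3 after the 900 challenge, 1 with the drug and 1 between cultures. With the block Slc26a4 passed after the 600 challenge with the drug (adjusted p = 0.0376) and the 900 challenge (0.041), while Atp6v1c2 lost its calls after the 600 challenge without (0.0658) and with the drug (0.0571). With the drug the count therefore stayed at 1 for a different gene, and so it did with the trend.

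Over all features, fitting only the groups compared called 2860 in place of 4934 features after the 900 challenge, 3059 in place of 5040 with the drug, 2479 in place of 3982 after the 600 challenge with the drug, 3071 in place of 4655 between the 600 challenge and the 600 culture, and 0 in place of 116 and of 143 for cyclosporin A. The trend called 272 and 383 for the drug, and leaving out single arrays 39 to 67 and 43 to 76. For the difference of drug effects, 13 features became 5 with only the groups compared, 37 with the trend, 20 without dim features and 4 to 17 without single arrays. Median centring moved the share of higher calls after the 900 challenge with the drug from 40.9% to 53.5%. No gene had another feature to use instead. Levels under the lower quartile on 17 or 18 of 18 arrays limit what can be said of 6 of the 8 genes.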
